A study of Homo sapiens with 8 samples.

Results

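The nuclear genome encodes most subunits of respiratory complexes III, IV and V, and 36 of these genes were followed across the treatments of one cell line. They were taken by symbol from a list and matched 36 of the 61517 genes in the count table, each to a single row. They comprise 9 genes of complex III, the electron carrier gene CYCS, 10 genes of complex IV and 16 genes of complex V. The libraries came from KYSE150, an established human esophageal squamous cell carcinoma line grown in RPMI-1640 with serum, and every group is this 1 line. Poly(A)-selected RNA was sequenced in 4 groups of 2 libraries. These were hypoxia with sodium oxamate and NALA, hypoxia with sodium oxamate, hypoxia with no added agent, and normoxia with no added agent. Oxamate is an inhibitor of lactate dehydrogenase, and NALA was read as sodium lactate because the treatment protocol in the labels names that salt. How low the oxygen was, how much of each agent was added and for how long is not given in the labels. From the series title, the study is about lactylation of HIF-1α and immune evasion of this carcinoma under low oxygen.

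Complex III takes electrons from ubiquinol and hands them to cytochrome c, the small soluble carrier encoded by CYCS. Complex IV, cytochrome c oxidase, passes them on to oxygen, and both complexes pump protons across the inner mitochondrial membrane. Complex V, the ATP synthase, lets the protons flow back through a rotating ring and uses that rotation to make ATP. Cytochrome b of complex III, the catalytic core of complex IV and a part of the proton channel of complex V are encoded by mitochondrial DNA, so each complex is built from transcripts of both genomes.

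All 36 genes were well expressed, with 567 to 48970 counts per library, and all passed the filter on low counts that left 15554 genes for testing. Levels are given as CPM, counts scaled to a common library size with factors from the trimmed mean of M values (TMM). The least abundant gene by CPM was ATP5IF1, which encodes the inhibitor that stops ATP synthase from running in reverse. It averaged 27.9 CPM with oxamate plus NALA, 40.2 with oxamate, 31.9 in hypoxia and 25.4 in normoxia. The most abundant was ATP5F1B, the catalytic beta subunit of the F1 head, at 1704, 1900, 921 and 849 CPM in the same order of groups. ATP5F1B alone held between 14.9% and 19.6% of all counts of the 36 genes in a library. Per kilobase of annotated exon, which allows genes to be compared with each other, ATP5F1B also stood highest in all 4 groups (818 CPM per kb with oxamate and 366 in normoxia). COX8A, a small subunit of complex IV, came next by that measure (471 and 204 CPM per kb in the same groups). Merged exons include rarely used ones, so a per-kilobase level is understated for genes such as UQCRB, whose annotated exons cover 9715 bases.

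Summed over the 36 genes, the share of all counts was 0.792% and 0.780% with oxamate plus NALA, 0.929% and 0.925% with oxamate, 0.640% and 0.641% in hypoxia, and 0.649% and 0.659% in normoxia. The oxamate libraries were the highest, those with NALA came second, and hypoxia alone lay slightly under normoxia. On the TMM scale hypoxia lay slightly above normoxia instead (5851 and 5834 CPM in hypoxia, 5648 and 5728 CPM in normoxia). Taken gene by gene, the group mean was highest with oxamate for 32 of the 36 genes, with oxamate plus NALA for 3 and in normoxia for 1. The lowest mean was in normoxia for 23 genes, in hypoxia for 12 and with NALA for 1. The full order of oxamate, then oxamate plus NALA, then hypoxia, then normoxia held for 21 genes. For 9 more the last pair of this order was exchanged. Among all tested genes, the shares with each highest group, lowest group or order were not counted.

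**Figure D1:**
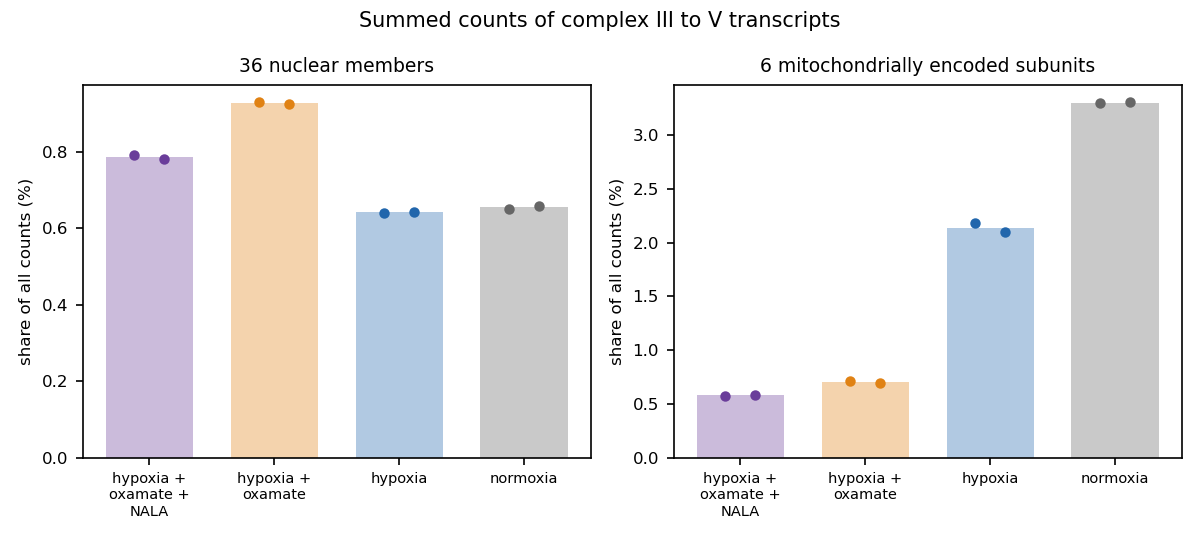
Share of all counts in each library, in percent, held by the 36 nuclear genes of complexes III to V and by 6 mitochondrially encoded subunits of the same complexes; each point is 1 library. The nuclear genes reach 0.929% with oxamate against 0.640% in hypoxia, whereas the mitochondrial genes fall to 0.713% with oxamate against 2.18% in hypoxia and 3.30% in normoxia. With oxamate plus NALA both are under their oxamate levels, at 0.792% and 0.780% for the nuclear and 0.577% and 0.580% for the mitochondrial genes.

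Genes for respiratory subunits are known in mammals as targets of the transcription factors NRF-1 and GABP, the ETS factor also called NRF-2. For 29 of the 36 genes the RefSeq promoter table (GRCh38.p14) held a sequence, and the 250 bases before the start were searched on both strands. The NRF-1 core CATGCGC was present in 7 of these 29 promoters (24.1%), against 6.53% of the 10564 promoters of tested genes that the table holds. The ETS motif CCGGAAGT was present in 6 (20.7%, against 7.35%) and the YY1 motif AAGATGGCG in 1 (3.45%, against 1.08%). The core of the hypoxia response element, ACGTG, was present in 8 (27.6%, against 23.3%) and the E-box CACGTG, which contains that core, in 3 (10.3%, against 8.83%). These letters were settled after the sequences had been seen, so the shares describe these windows and are not tests. The following 4 promoters are shown 5′ to 3′ with NRF-1 and ETS matches in capitals. They belong to the gene with the largest fall in hypoxia, the complex III and complex IV genes with the largest rises with oxamate over normoxia, and the gene with the largest rise with oxamate over hypoxia. They lie at chr7:25125261-25125510 (minus strand), chr5:132866392-132866641 (plus), chr12:120437863-120438112 (plus) and chr17:48892537-48892786 (plus).
CYCS: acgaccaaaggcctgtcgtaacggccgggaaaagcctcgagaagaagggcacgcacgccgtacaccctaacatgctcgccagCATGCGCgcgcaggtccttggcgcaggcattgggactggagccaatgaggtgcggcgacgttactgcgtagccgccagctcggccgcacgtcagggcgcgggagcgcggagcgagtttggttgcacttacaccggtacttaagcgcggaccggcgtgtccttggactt
UQCRQ: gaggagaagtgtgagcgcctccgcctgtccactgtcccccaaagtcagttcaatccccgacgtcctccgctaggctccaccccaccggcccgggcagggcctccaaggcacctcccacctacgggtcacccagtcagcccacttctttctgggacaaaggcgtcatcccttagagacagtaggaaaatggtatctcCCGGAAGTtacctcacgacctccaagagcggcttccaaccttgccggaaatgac
COX6A1: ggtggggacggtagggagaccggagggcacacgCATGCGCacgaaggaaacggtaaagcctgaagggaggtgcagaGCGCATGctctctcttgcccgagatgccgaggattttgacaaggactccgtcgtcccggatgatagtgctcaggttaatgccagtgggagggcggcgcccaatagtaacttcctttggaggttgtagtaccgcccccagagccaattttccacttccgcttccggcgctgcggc
ATP5MC1: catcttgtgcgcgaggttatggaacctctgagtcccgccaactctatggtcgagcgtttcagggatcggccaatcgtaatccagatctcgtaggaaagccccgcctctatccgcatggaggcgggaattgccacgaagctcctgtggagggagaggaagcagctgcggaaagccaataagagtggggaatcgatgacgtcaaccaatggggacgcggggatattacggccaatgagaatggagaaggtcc
CYCS holds 1 NRF-1 core and, left in lower case, the hypoxia response core, COX6A1 holds 1 on each strand, UQCRQ holds 1 ETS motif, and none of the letters searched for are in the ATP5MC1 window.

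The first comparison set hypoxia against normoxia. Of the 36 genes, 20 were higher in hypoxia, 6 were lower and 10 did not pass an adjusted p of 0.05. Among all tested genes 36.7% were higher and 36.8% were lower, 73.5% in all. The median log2 fold change of the 36 genes was 0.17, against 0.02 over all tested genes, and 3 genes rose and 3 fell by at least 0.5, as did 25.6% and 25.2% of all tested genes. The count and the median moved with the scaling. Library totals with no scaling factor gave 18 higher and 12 lower genes and a median of 0.10, and upper quartile normalization gave 24 higher and 5 lower and a median of 0.27. The lower genes were CYCS, UQCRFS1, ATP5MC1, ATP5MC3, ATP5PF and UQCR10. Tests are edgeR's two-sided quasi-likelihood test on 2 libraries per group with Benjamini-Hochberg adjustment over all tested genes, and errors of log2 fold changes are standard errors. Whether replicate libraries came from separate cultures is not stated in the labels. The spread behind each p-value is that between replicate libraries, pooled over the 4 groups, and may be technical. In bulk RNA, a change within every cell and a change in the share of cells expressing a gene cannot be told apart.

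CYCS, at chromosome 7 from 25120091 to 25125361 on the minus strand, had the largest change. It was at 123 and 123 CPM in hypoxia, against 479 and 464 CPM in normoxia (log2 fold change -1.94 ± 0.036, adjusted p = 1.36e-21). It is the only gene of the 36 with its highest mean in normoxia, where it held 8.48% and 8.10% of their summed counts, against 2.10% in both hypoxia libraries. UQCRFS1, the Rieske iron-sulfur subunit that accepts the first electron from ubiquinol, lies on chromosome 19 from 29205321 to 29213541. It was at 57.5 and 61.9 CPM in hypoxia, against 99.4 and 103 CPM in normoxia (-0.76 ± 0.045, adjusted p = 9.80e-13). Its partner in the electron path, CYC1, which encodes cytochrome c1, had 145 and 138 CPM in hypoxia, against 147 and 155 CPM in normoxia, and did not pass (-0.10 ± 0.051, adjusted p = 0.111). The other complex III genes moved either way. The core proteins UQCRC1 (0.47 ± 0.034) and UQCRC2 (0.30 ± 0.033) rose, as did the small subunit UQCRH (0.23 ± 0.044). UQCRB, a subunit next to the ubiquinone site, had 131 and 134 CPM in hypoxia, against 96.2 and 90.8 CPM in normoxia (0.51 ± 0.047, adjusted p = 5.89e-09). UQCR10, another small subunit, fell, with 62.8 and 61.8 CPM in hypoxia, against 68.5 and 69.5 CPM in normoxia (-0.15 ± 0.047, adjusted p = 0.00823). That call was lost with upper quartile normalization (-0.042) and without normoxia replicate 2 or hypoxia replicate 2.

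In complex IV, 9 of 10 genes rose in hypoxia and none fell, with a median log2 fold change of 0.32. Among all tested genes 36.7% rose and 36.8% fell. The call of COX7A2 (0.16) was lost with library totals and when normoxia replicate 1 or hypoxia replicate 2 was left out. COX5B, a subunit on the matrix side, had 115 and 116 CPM in hypoxia, against 79.2 and 77.3 CPM in normoxia (0.56 ± 0.091, adjusted p = 0.00119). COX6C, at chromosome 8 from 99873200 to 99894062, had 90.3 and 88.0 CPM in hypoxia, against 58.8 and 63.9 CPM in normoxia (0.54 ± 0.054, adjusted p = 2.02e-08). The libraries did not overlap for either gene, nor for genes that did not pass, such as UQCR11 and CYC1. How common this was among all tested genes was not counted. COX8A rose by 0.48 ± 0.035 and COX7A2L, which joins complexes III and IV in supercomplexes, by 0.18 ± 0.046, with 55.9 and 54.6 CPM in hypoxia and 49.0 and 48.4 CPM in normoxia. COX5A alone did not pass (-0.05 ± 0.044, adjusted p = 0.305), and its libraries overlapped.

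In complex V, 7 of 16 genes were higher in hypoxia, 3 were lower and 6 did not pass, while 36.7% of all tested genes were higher and 36.8% were lower. The genes of the c-ring, the rotor that carries protons, went in opposite directions although ATP5MC1, ATP5MC2 and ATP5MC3 encode the same mature protein. ATP5MC1 had 44.6 and 47.9 CPM in hypoxia, against 72.5 and 77.1 CPM in normoxia (-0.70 ± 0.049, adjusted p = 2.06e-11). ATP5MC3 had 135 and 130 CPM in hypoxia, against 173 and 177 CPM in normoxia (-0.40 ± 0.034, adjusted p = 5.37e-10). ATP5MC2 had 189 and 190 CPM in hypoxia, against 141 and 143 CPM in normoxia (0.42 ± 0.033, adjusted p = 1.65e-10). ATP5MC2 thus held 51.4% and 51.6% of the counts of the 3 genes in hypoxia, against 36.5% and 36.1% in normoxia. Among the F1 head genes, ATP5F1B rose by 0.12 ± 0.026 (0.050 and not called with library totals) and the gamma subunit ATP5F1C by 0.17 ± 0.032, and the alpha subunit ATP5F1A had a difference of -0.01 ± 0.029 (adjusted p = 0.804). ATP5PF, a peripheral stalk subunit, fell, with 131 and 122 CPM in hypoxia, against 150 and 148 CPM in normoxia (-0.23 ± 0.046, adjusted p = 0.000139). ATP5IF1 rose by 0.33 ± 0.065, with 32.1 and 31.7 CPM in hypoxia and 24.1 and 26.6 CPM in normoxia.

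**Figure D2:**
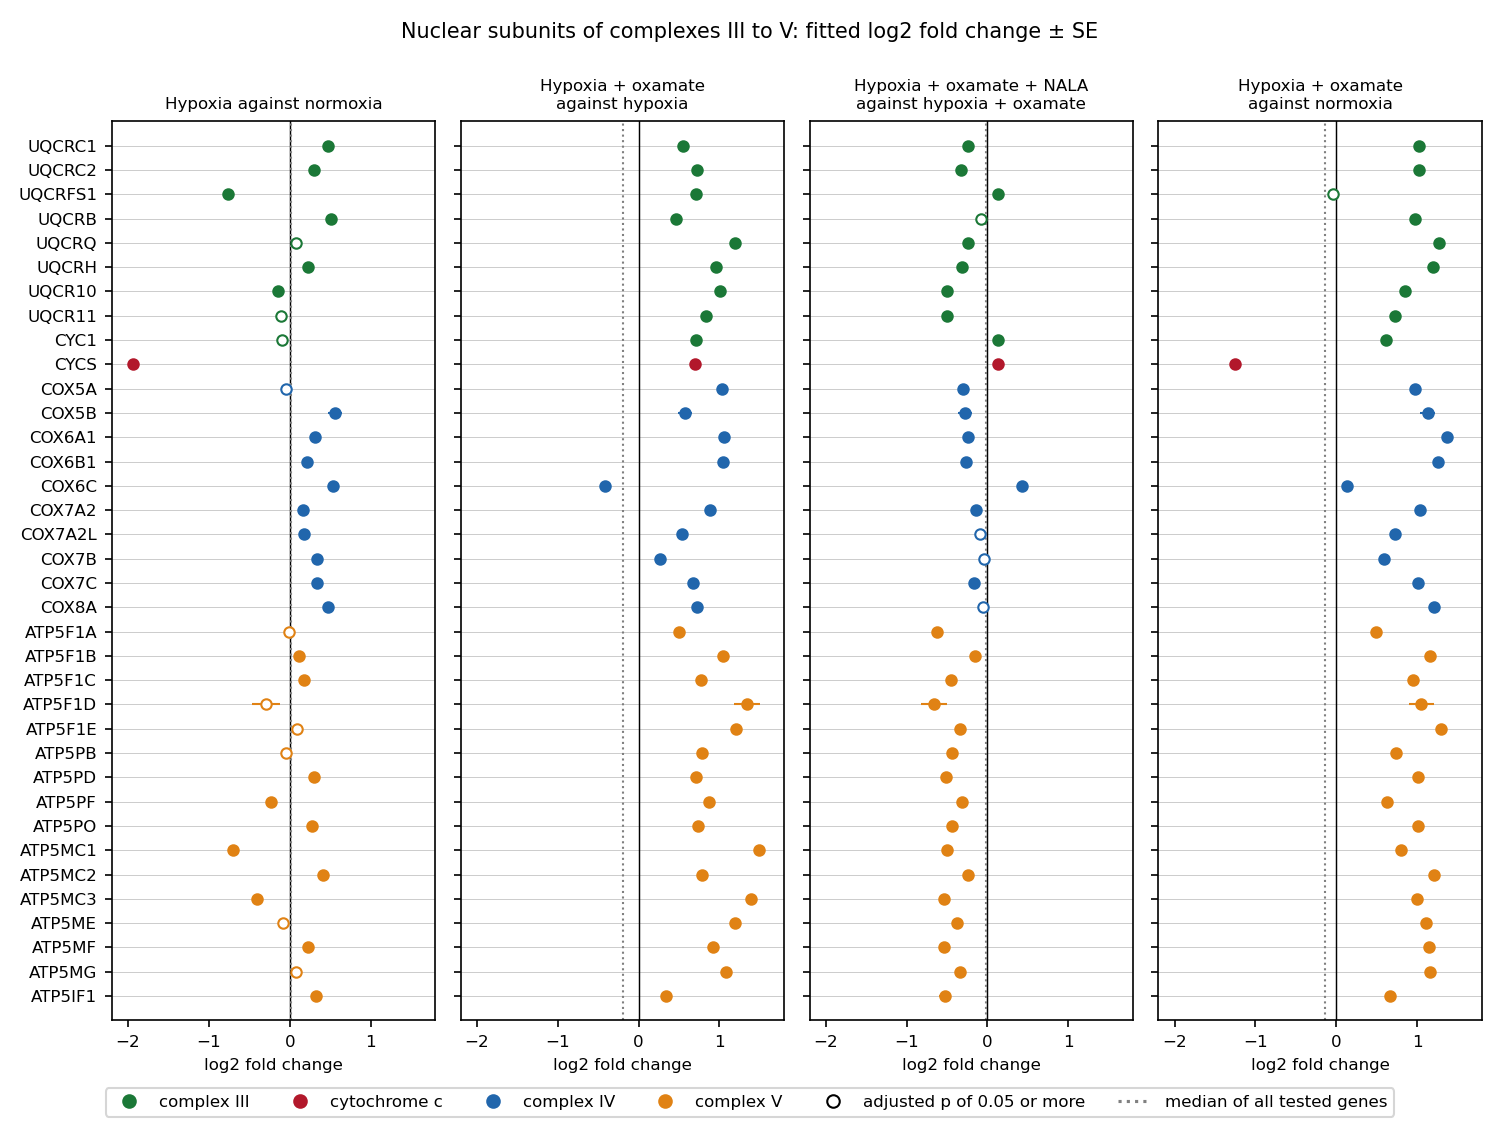
Log2 fold change ± standard error of each of the 36 genes in 4 comparisons (n = 2 libraries per group), with filled points where the adjusted p was under 0.05 and a dotted line at the median of all tested genes. In oxamate plus hypoxia against hypoxia all points but COX6C lie right of 0, with COX7B moving to the left (-0.060) if library totals are used without a scaling factor, and after adding NALA all 16 complex V genes lie left of 0.

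The second comparison set oxamate in hypoxia against hypoxia alone. Here 35 of the 36 genes were higher and COX6C was lower, while 35.7% of all tested genes were higher and 44.8% were lower, 80.5% in all. The median of the 36 was 0.78, against -0.20 over all tested genes, and 32 of them rose and none fell by at least 0.5, while 27.1% of all tested genes rose and 37.3% fell by that much. The medians were 0.72 in complex III, 0.70 in complex IV and 0.89 in complex V. With library totals and no scaling factor, COX7B had a log2 fold change of -0.060 and ATP5IF1 of 0.014, and neither passed, while the other 33 higher genes still passed. Under that scaling the share of called genes that were higher, over the whole table, was 32.7% against 44.4% with TMM, and the median of all tested genes shifted by -0.32. The libraries of the oxamate and hypoxia groups overlapped for none of the 36 genes. How common this was among all tested genes was not counted.

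The 2 largest rises were in c-ring genes. ATP5MC1, at chromosome 17 from 48892765 to 48895871, had 133 and 127 CPM with oxamate, against 44.6 and 47.9 CPM in hypoxia (1.49 ± 0.048, adjusted p = 8.44e-18). ATP5MC3 had 348 and 347 CPM with oxamate, against 135 and 130 CPM in hypoxia (1.39 ± 0.033, adjusted p = 5.94e-20). Both had fallen in hypoxia, and with oxamate both stood above normoxia as well. ATP5MC2, which had risen in hypoxia, had 332 and 323 CPM with oxamate, against 189 and 190 CPM in hypoxia (0.79 ± 0.032). ATP5F1B, at chromosome 12 from 56638175 to 56646068, had 1896 and 1903 CPM with oxamate, against 912 and 930 CPM in hypoxia (1.04 ± 0.026, adjusted p = 1.40e-19). The small subunits of the central stalk rose as well. ATP5F1D (delta) had 191 and 179 CPM with oxamate, against 75.7 and 70.0 CPM in hypoxia (1.34 ± 0.161, adjusted p = 0.00129), and ATP5F1E (epsilon) rose by 1.20 ± 0.041. The peripheral stalk genes ATP5PB, ATP5PD, ATP5PF and ATP5PO rose by 0.71 to 0.87, and the membrane subunits ATP5ME, ATP5MF and ATP5MG by 0.92 to 1.19.

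In complex III, UQCRQ, a small membrane-anchored subunit, had 206 and 213 CPM with oxamate, against 94.3 and 89.4 CPM in hypoxia (1.19 ± 0.041, adjusted p = 3.29e-17). UQCRFS1 had 100 and 95.7 CPM with oxamate, against 57.5 and 61.9 CPM in hypoxia (0.71 ± 0.046). Its difference from normoxia did not pass (-0.04 ± 0.044, adjusted p = 0.374), and those libraries overlapped, with 99.4 and 103 CPM in normoxia. CYCS had 193 and 203 CPM with oxamate, against 123 and 123 CPM in hypoxia (0.69 ± 0.037), and stayed under its 479 and 464 CPM in normoxia. In complex IV, COX6A1 had 461 and 455 CPM with oxamate, against 227 and 213 CPM in hypoxia (1.06 ± 0.034, adjusted p = 1.22e-17). COX6C went the other way, with 67.6 and 66.5 CPM with oxamate, against 90.3 and 88.0 CPM in hypoxia (-0.41 ± 0.054, adjusted p = 8.71e-07). The smallest rise was in COX7B, with 168 and 164 CPM with oxamate, against 138 and 139 CPM in hypoxia (0.26 ± 0.045, adjusted p = 3.06e-05). COX7A2L had 80.1 and 80.3 CPM with oxamate, against 55.9 and 54.6 CPM in hypoxia (0.54 ± 0.044).

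**Figure D3:**
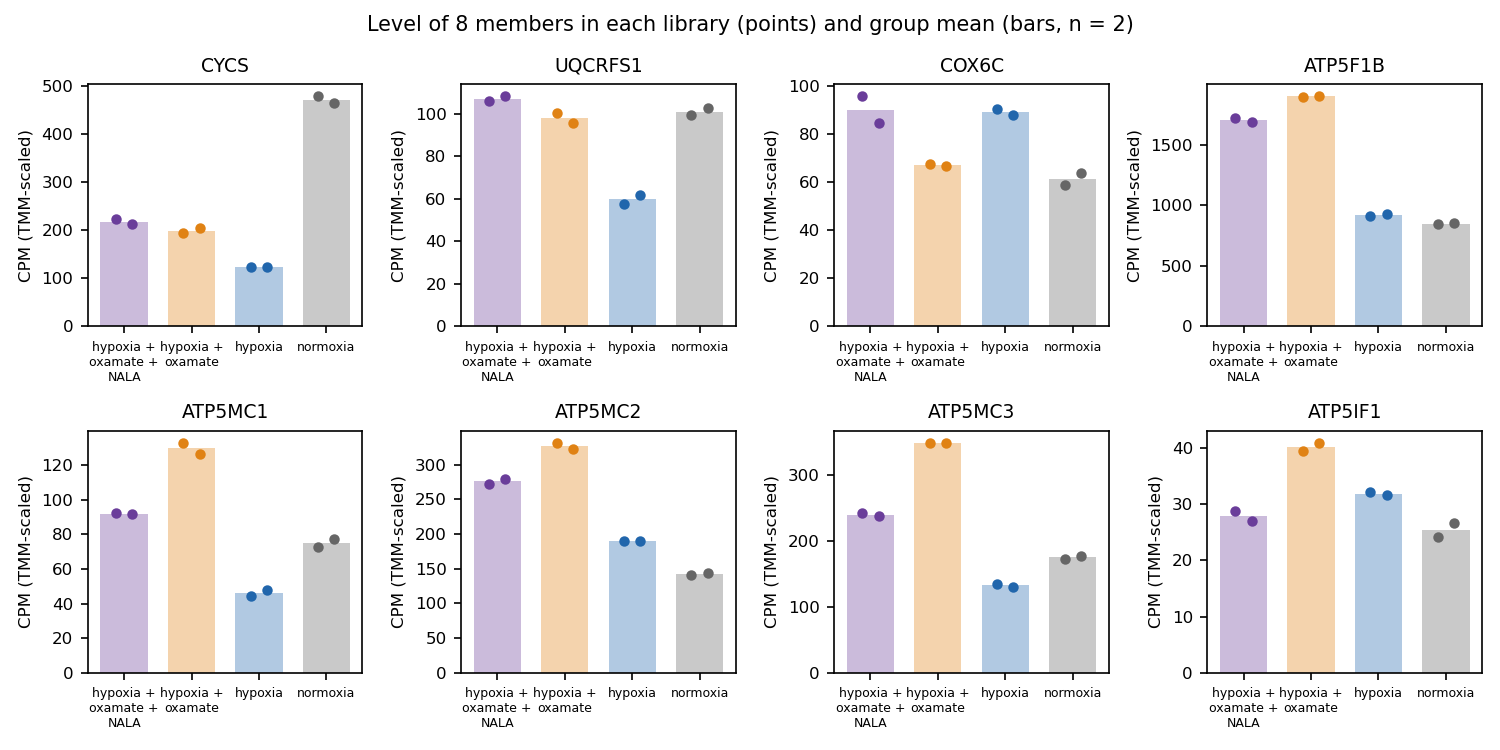
TMM-scaled CPM of 8 of the genes in each library, with a bar at the mean of the 2 libraries of a group. CYCS is highest in normoxia (479 and 464 CPM) and lowest in hypoxia, the c-ring genes ATP5MC1 and ATP5MC3 are lowest in hypoxia and highest with oxamate, and COX6C is lower with oxamate (67.6 and 66.5 CPM) than in hypoxia (90.3 and 88.0 CPM).

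The third comparison added NALA to oxamate in hypoxia. With NALA 28 of the 36 genes were lower, 4 were higher and 4 did not pass, while 31.7% of all tested genes were lower and 33.2% were higher, 64.9% in all. The median of the 36 was -0.31, against -0.02 over all tested genes, and 9 fell and none rose by at least 0.5, while 16.4% of all tested genes fell and 24.3% rose by that much. Upper quartile normalization moved the median of all tested genes by -0.19 and the share of called genes that were higher to 39.6%, against 51.2% with TMM. All 16 complex V genes fell, with a median of -0.45, while complex III had 6 lower genes and 2 higher and complex IV 6 lower and 1 higher, with medians of -0.24 and -0.15. The differences between the complexes were not tested. This comparison shares the oxamate libraries with the second, so their fold changes are not independent of each other.

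ATP5F1A, the alpha subunit that forms the F1 head together with ATP5F1B, had 305 and 304 CPM with NALA, against 469 and 466 CPM with oxamate alone (-0.62 ± 0.029, adjusted p = 2.70e-14). Its hypoxia libraries had 327 and 333 CPM, all above those with NALA, a difference that was not tested. ATP5F1B moved less, with 1721 and 1687 CPM with NALA, against 1896 and 1903 CPM with oxamate alone (-0.16 ± 0.026, adjusted p = 1.48e-05). ATP5IF1 had 28.8 and 27.0 CPM with NALA, against 39.5 and 41.0 CPM with oxamate alone (-0.53 ± 0.066, adjusted p = 2.91e-07). The c-ring genes ATP5MC1 (-0.50 ± 0.045), ATP5MC3 (-0.54 ± 0.033) and ATP5MC2 (-0.25 ± 0.032) all fell, to 92.2 and 91.5, 241 and 237, and 273 and 279 CPM with NALA. ATP5F1D had 97.9 and 135 CPM with NALA, against 191 and 179 CPM with oxamate alone (-0.66 ± 0.158, adjusted p = 0.0201). Its standard error was the largest of the 36 genes, and its call was lost without oxamate replicate 1 and in 2 other settings.

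The 4 genes that were higher with NALA were COX6C, CYCS, CYC1 and UQCRFS1. COX6C had 95.8 and 84.4 CPM with NALA, against 67.6 and 66.5 CPM with oxamate alone (0.42 ± 0.056, adjusted p = 1.22e-06), which is close to its hypoxia level of 90.3 and 88.0 CPM. It was the only member called higher under every setting tried. CYCS (0.13 ± 0.036), CYC1 (0.13 ± 0.050) and UQCRFS1 (0.13 ± 0.044) rose by little, and each turned negative, to between -0.061 and -0.056, with upper quartile normalization. CYCS had 224 and 212 CPM with NALA, against 193 and 203 CPM with oxamate alone (adjusted p = 0.00266). CYC1 had 239 and 268 CPM with NALA, against 226 and 237 CPM with oxamate alone (adjusted p = 0.0317). UQCRFS1 had 106 and 108 CPM with NALA, against 100 and 95.7 CPM with oxamate alone (adjusted p = 0.0139). The libraries did not overlap for any of these 4 genes, though how common this was among all tested genes was not counted. The 3 small rises were lost or turned under RLE, DESeq2, the stricter filter and without an oxamate replicate. The 4 genes that did not pass were UQCRB, COX7A2L, COX7B and COX8A, with differences between -0.10 and -0.04. Under other settings they were often called lower, UQCRB in 7 of 12 alternatives, COX7A2L and COX8A in 6 each and COX7B in 4, among them upper quartile normalization and the stricter filter for all 4 genes.

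Oxamate in hypoxia was also set against normoxia, sharing libraries with the comparisons above. Of the 36 genes 34 were higher, CYCS was lower and UQCRFS1 did not pass, while 31.9% of all tested genes were higher and 40.1% were lower, 72% in all. The median was 1.00, against -0.14 over all tested genes. By at least 0.5, 32 of the genes were higher and 1 was lower, as were 20.8% and 31.1% of all tested genes. With library totals and no scaling factor it was 0.62, 33 genes were higher and 3 were lower, and 24.5% of all called genes were higher, against 44.3% with TMM. COX6A1 had 461 and 455 CPM with oxamate, against 173 and 181 CPM in normoxia (1.37 ± 0.035, adjusted p = 3.96e-19). ATP5F1E had 340 and 337 CPM with oxamate, against 134 and 143 CPM in normoxia (1.29 ± 0.041). UQCRQ had 206 and 213 CPM with oxamate, against 84.2 and 89.7 CPM in normoxia (1.27 ± 0.041). All 3 stood at more in oxamate libraries than in any other group. COX6C passed narrowly at 0.13 ± 0.056 (adjusted p = 0.0499) and turned to -0.26 with library totals. CYCS remained lower than in normoxia, by 1.25 on the log2 scale with a standard error of 0.035.

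Over the comparisons of hypoxia with normoxia, of oxamate with hypoxia and of NALA with oxamate, 15 genes were called higher, higher and lower in turn. A further 9 were not called in hypoxia, rose with oxamate and fell with NALA, and 4 fell, rose and fell. CYCS and UQCRFS1 fell, rose and rose. COX6C was the single gene that rose, fell and rose. The share of all tested genes with each of these patterns was not counted, so the counts cannot show whether the patterns are particular to these genes. Adjacent comparisons also share libraries, so the calls within a pattern are not independent of each other.

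The same complexes also hold mitochondrially encoded subunits. Of MT-CYB, MT-CO1, MT-CO2, MT-CO3, MT-ATP6 and MT-ATP8, 5 were lower and 1 higher in hypoxia than in normoxia, with a median of -1.83. With oxamate all 6 were lower than in hypoxia, with a median of -1.30, while 35 of the 36 nuclear genes were higher. Among all tested genes 36.8% were lower in hypoxia than in normoxia, and 44.8% were lower with oxamate than in hypoxia. With NALA against oxamate alone, 4 of the 6 were lower and 2 higher, with a median of -0.34. In that comparison 28 of the 36 nuclear genes were lower too, as were 31.7% of all tested genes, and 33.2% were higher. The 2 higher ones were MT-ATP8 (0.46) and MT-ATP6 (0.20), whose call was lost with upper quartile normalization (0.0076). In hypoxia the log2 fold change was -1.56 for MT-CYB of complex III. In complex IV it was 0.08 for the catalytic subunit MT-CO1, -0.10 for MT-CO2, which receives electrons from cytochrome c, and -2.31 for MT-CO3. The call of MT-CO1 was lost in 5 of 12 alternatives, among them library totals (0.0080) and leaving out hypoxia replicate 1 or either normoxia replicate. MT-CO2 lost its call with upper quartile normalization (0.0024), with the stricter filter and without hypoxia replicate 2. In complex V it was -2.10 for MT-ATP6, part of the proton channel, and -2.43 for MT-ATP8, whose reading frame overlaps that of MT-ATP6. The summed counts of the 36 nuclear genes per count of these 6 were 1.37 and 1.34 with oxamate plus NALA, 1.30 and 1.33 with oxamate, 0.294 and 0.305 in hypoxia, and 0.197 and 0.199 in normoxia. The groups with oxamate stood apart from those without. Libraries were selected for poly(A), and how well such selection keeps mitochondrial transcripts was not tested. All transcripts of the mitochondrial chromosome together held 2.14% and 2.09% of counts with NALA, 2.45% and 2.44% with oxamate, 4.78% and 4.61% in hypoxia, and 5.74% and 5.73% in normoxia.

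Assembly factors, which insert cofactors or join subunits but are not part of the finished complexes, were counted beside the subunits. Their counts stand against 36.7% of all tested genes higher and 36.8% lower in hypoxia, 35.7% and 44.8% with oxamate over hypoxia, and 33.2% and 31.7% with NALA over oxamate. For complex III, 6 of 7 were lower in hypoxia than in normoxia, and with oxamate 6 of 7 were higher than in hypoxia. BCS1L, which inserts the Rieske protein, averaged 21.4 CPM in hypoxia and 56.6 CPM in normoxia (-1.40 ± 0.058), and 77.0 CPM with oxamate (1.84 ± 0.057 over hypoxia). HCCS, which attaches haem to cytochrome c and cytochrome c1, had 22.9 CPM in hypoxia and 56.8 CPM in normoxia (-1.31 ± 0.052), and 57.2 CPM with oxamate (1.32 ± 0.053 over hypoxia). For complex IV, 14 of 25 were lower in hypoxia and 6 higher, and with oxamate 18 were higher and 4 lower. COA7 averaged 5.31 CPM in hypoxia and 88.6 CPM in normoxia (-4.06 ± 0.070). For complex V, 1 of 6 was higher and 3 were lower in hypoxia, and with oxamate 4 were higher and 1 lower. FMC1 had 8.15 CPM in hypoxia and 1.96 CPM in normoxia (2.06 ± 0.160), and fell with oxamate against hypoxia (-1.09 ± 0.148). TMEM70, needed for ATP synthase assembly in humans, had 10.2 CPM in hypoxia and 38.4 CPM in normoxia (-1.91 ± 0.075), and rose with oxamate over hypoxia by 1.48 ± 0.078. With NALA, 15 of the 25 complex IV factors were lower than with oxamate alone and 6 were higher. Of the 7 complex III factors 3 were lower and 1 was higher, and of the 6 complex V factors 3 were lower and 2 higher.

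The list of regulators of mitochondrial biogenesis holds some that act on nuclear genes, such as NRF-1, and some that act on mitochondrial DNA, such as TFAM. In hypoxia 10 of 12 tested regulators were lower than in normoxia and 1 was higher, with a median of -1.08. Among all tested genes 36.8% were lower and 36.7% were higher. PPRC1, a coactivator of NRF-1, averaged 21.0 CPM in hypoxia and 115 CPM in normoxia (-2.45 ± 0.048). With oxamate 6 were higher and 4 lower than in hypoxia, against 35.7% and 44.8% of all tested genes. Among the higher ones were PPRC1 (1.90, to 78.6 CPM) and POLRMT (1.64). Among the lower ones were TFB2M, a mitochondrial transcription factor (-1.08 ± 0.073), and GABPA (-0.59). With NALA 11 of 12 were higher than with oxamate alone and 1 was lower, while 28 of the 36 subunit genes were lower. Among all tested genes 33.2% were higher and 31.7% were lower. TFAM, which packages mitochondrial DNA, had 125 CPM with NALA and 54.1 CPM with oxamate alone (1.20 ± 0.049), and MYC had 119 CPM and 39.1 CPM in the same groups (1.60 ± 0.051). Of the 4 subunits of complex II, all of them encoded in the nucleus, 2 were higher and 1 lower with oxamate than in hypoxia. They are too few to set against the 35.7% and 44.8% of all tested genes. SDHB, the iron-sulfur subunit of complex II, rose by 1.30 ± 0.041. Of 11 further subunits and isoforms of complexes III to V, 5 were tested. All 5, among them COX4I1 (0.63 ± 0.031) and NDUFA4 (0.86 ± 0.042), rose with oxamate over hypoxia, as did 35.7% of all tested genes.

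**Figure D4:**
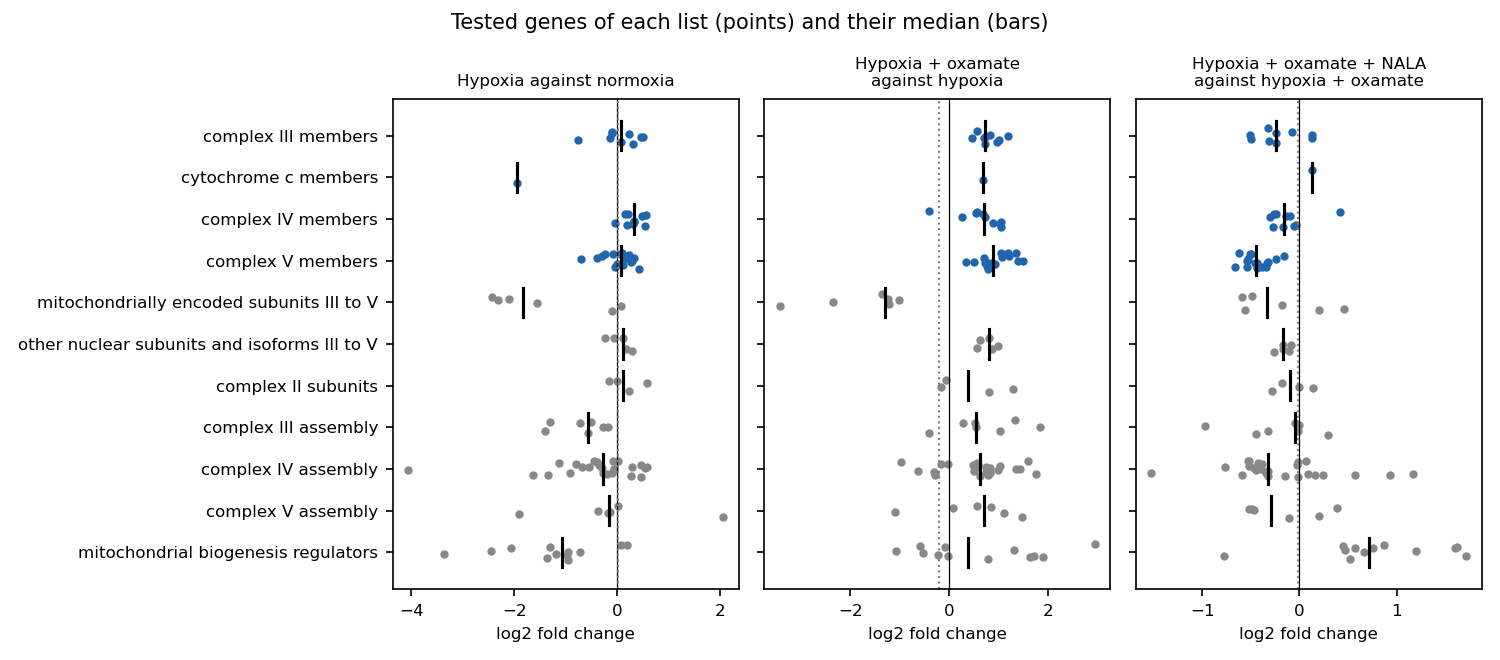
Log2 fold changes of the genes of each list in 3 comparisons, each point 1 gene and each bar the median of its list. With NALA against oxamate alone, the complex V genes have a median of -0.45 and the biogenesis regulators a median of 0.71.

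Total counts per library ran from 21845676 to 29406061. TMM factors were 0.901 with oxamate plus NALA, 0.879 with oxamate, 1.10 in hypoxia and 1.15 in normoxia, in both libraries of each group, so levels are relative to the bulk of other transcripts. All 8 squamous epithelial markers were tested and detected in every library. They summed to 3687 and 3704 CPM with NALA, 4937 in both oxamate libraries, 2569 and 2565 CPM in hypoxia, and 2912 and 2904 CPM in normoxia. Like that of the 36 genes, this sum was highest with oxamate and next with NALA. KRT5 alone gave 2190 and 2212 CPM of it with NALA, 3489 in both oxamate libraries, 973 and 970 CPM in hypoxia, and 1678 and 1677 CPM in normoxia. The markers themselves split. In oxamate against hypoxia 4 were higher and 3 lower, with KRT5 at 1.84 and KRT17 at 1.58 but SFN at -2.03 and TP63 at -1.62 on the log2 scale. In hypoxia against normoxia 3 were higher and 4 lower, as were 3 and 4 in NALA against oxamate. Their part in the results was not tested. The 6 leukocyte markers summed to 14 and 15 counts with NALA, 17 and 13 with oxamate, 31 and 53 in hypoxia, and 3 and 21 in normoxia, with CD3D at 0 throughout and PTPRC at 0 in 7 of 8 libraries. The 7 fibroblast and endothelial markers summed to 29 and 41 counts with NALA, 39 and 64 with oxamate, 299 and 271 in hypoxia, and 100 and 118 in normoxia, with COL3A1 at 0 throughout. Of these lists, 2 leukocyte markers and 3 of the others were tested, and 2 and 1 of them were higher in hypoxia than in normoxia. With oxamate, CD3E (-2.86), ITGAM (-1.89), COL1A1 (-2.92) and VWF (-2.12) were lower than in hypoxia. COL1A1 averaged 1.04 CPM with oxamate and 7.81 CPM in hypoxia. The others rest on few counts. With oxamate against hypoxia these were 3 and 2 against 14 and 29 for CD3E, 4 and 5 against 15 and 24 for ITGAM, and 2 and 6 against 30 and 11 for VWF. Their part in the results was not tested. Of the 36 genes, 18 share annotated exon bases with another gene, and for 6 a partner reached at least 10% of the gene's level. For UQCR11 (AC005943.1, at 35.1%) and ATP5MF (PTCD1, at 10.3%) the partner lies on the same strand. For ATP5PB, ATP5PD, ATP5PF and ATP5MG it lies on the opposite strand, the highest being GABPA at 30% of ATP5PF. Reads in shared bases on the same strand may be assigned to either gene, and, since the counting is not stated to use strand, so may those of opposite pairs. Numbered pseudogenes are listed for 26 of the genes, and the largest held 2.89% of the counts of its parent, UQCRFS1.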

How the data were processed

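The authors deposited 1 table of raw counts per gene for 8 libraries, whole numbers with no normalization, per the file headers and values. The submitters' processing notes name STAR 2.7.8a, RSEM 1.3.3, FastQC 0.11.9 and GRCh38 (hg38) without their roles, so the values may be rounded RSEM estimates. The strand setting and the annotation release are not stated there.

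The analysis used edgeR 4.0.16 in R 4.3.3. Genes were kept by filterByExpr (minimum count 10), which left 15554, and libraries were scaled by TMM. One robust quasi-likelihood model with 4 residual degrees of freedom was fitted to all 8 libraries, and a gene was called at a Benjamini-Hochberg adjusted p under 0.05 over all tested genes. The common biological coefficient of variation was 3.06%. Replicates differed by more than sampling noise. Chi-square per degree of freedom was 4.78 with oxamate plus NALA, 2.03 with oxamate, 2.09 in hypoxia and 1.84 in normoxia. Because the fit pools the spread over the groups, errors and p-values of NALA against oxamate may be too small. The fit was first tested on simulated counts with 200 changed genes.

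The 36 genes and all lists were chosen with earlier results of these data known. Values in every library were given for the 3 largest and 3 smallest changes of each comparison, for calls against the direction of their complex and for the c-ring genes, ATP5IF1, COX7A2L and CYCS. Of the other lists, the mitochondrially encoded subunits and up to 2 called genes per direction with the smallest p were eligible. Other members were shown by library after their values were seen. Positions and exon lengths are those of GENCODE 29 on GRCh38, and promoters those of RefSeq. The alternatives tried were DESeq2 1.42.0, upper quartile and RLE scaling, dropping the filter or raising it to 50 counts in 2 libraries, a block for the replicate number, fitting only the 2 groups compared, leaving out each library in turn and, chosen after seeing the data, library totals with no scaling factor.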

Additional observations from a re-analysis of the deposited data

How the results depend on the processing

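A change of scaling factor shifts the median of the 36 genes and that of all tested genes by nearly the same amount. The difference between these medians therefore cannot check the choice of scaling. Over the 12 alternatives of each comparison it ran from 0.13 to 0.21 for hypoxia against normoxia and 0.86 to 0.99 for oxamate against hypoxia. It ran from -0.30 to -0.26 for NALA against oxamate and 1.09 to 1.15 for oxamate against normoxia. The median of the 36 genes itself moved with the scaling. Calls held under every alternative for 23 of 26 called genes in hypoxia against normoxia, 34 of 36 in oxamate against hypoxia, 26 of 32 in NALA against oxamate and 34 of 35 in oxamate against normoxia.

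For hypoxia against normoxia the median was 0.27 with upper quartile normalization, 0.21 with the stricter filter and 0.10 with library totals, which gave 12 lower genes. For oxamate against hypoxia it was 0.86 with RLE and with DESeq2, 0.71 with upper quartile normalization, 0.82 with the stricter filter, 0.89 with the 2-group fit and 0.46 with library totals. For NALA against oxamate it was -0.36 with RLE and with DESeq2, -0.50 with upper quartile normalization, -0.43 with the stricter filter and -0.27 with library totals, and 1 gene was higher with each of the first 4 of these settings. For oxamate against normoxia it was 1.09 with RLE and with DESeq2, 1.04 with upper quartile normalization, 0.97 with no filter, 1.08 with the stricter filter and with the 2-group fit, and 0.62 with library totals, which gave 3 lower members and 2838 higher genes in the whole table. Leaving out 1 library gave medians of 0.14 to 0.17 for hypoxia against normoxia, 0.78 to 0.90 for oxamate against hypoxia, -0.40 to -0.27 for NALA against oxamate and 0.99 to 1.11 for oxamate against normoxia, with 1 to 4 higher genes for NALA against oxamate.

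Single genes changed sign as follows, mostly from values near 0. UQCRFS1 in oxamate against normoxia was 0.040 with RLE and DESeq2, 0.035 with the stricter filter, 0.036 with the 2-group fit, and -0.080 to 0.083 with a library left out. Upper quartile normalization gave, for hypoxia against normoxia, 0.0021 for UQCR11, 0.010 for CYC1, 0.055 for COX5A, 0.097 for ATP5F1A, 0.062 for ATP5PB, 0.024 for ATP5ME and 0.0024 for MT-CO2, and for NALA against oxamate -0.061 for UQCRFS1, -0.060 for CYC1 and -0.056 for CYCS. The stricter filter gave 0.036 for ATP5F1A and 0.0014 for ATP5PB in hypoxia against normoxia. With 1 library left out, ATP5F1A ran from -0.022 to 0.0017 in that comparison. For NALA against oxamate CYC1 ran from -0.00157 to 0.21 and CYCS from -0.00249 to 0.18, with the low ends without oxamate replicate 1, UQCRB from -0.18 to 0.017 and COX7B from -0.15 to 0.066, with the high ends without NALA replicate 2. Library totals gave -0.060 for COX7B in oxamate against hypoxia and -0.26 for COX6C in oxamate against normoxia. The cause was not tested.

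Same-numbered replicates did not deviate together (correlations of deviations -0.103 to 0.058). This cannot show whether the numbers pair samples, since pairs with little shared deviation would give similar values. With the replicate number as a block, 20 genes were higher and 6 lower in hypoxia, 35 and 1 with oxamate over hypoxia, 4 and 28 with NALA over oxamate, and 33 and 1 with oxamate over normoxia, where COX6C no longer passed.

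With 2 libraries per group, 1 library left out leaves an arm whose spread is assumed to be that of the other groups. Depth does not limit the 36 genes, whose lowest count was 567.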
